A study of Mus musculus with 9 samples.

Results

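The genes described here encode the nuclear subunits of oxidative phosphorylation, the 5 protein complexes of the inner mitochondrial membrane. They were chosen by the array's own gene names: names starting with Nduf followed by a, b, c, s or v and a number, the names Sdha to Sdhd, and names starting with Uqcr, Cox4 to Cox8 or Atp5. This gave 85 genes on 128 probes, of which 83 passed the filter on low signals, among 16375 genes tested in all. Complex I had 37 tested genes, complex II 4, complex III 8, complex IV 17 and complex V 17. The 2 genes that did not pass, Cox7b2 and Cox8c, were not well above background on any of the 9 arrays. The rule also takes 4 names that have newer symbols in RefSeq. Atp5f1 is now Atp5pb and is a subunit, whereas Atp5s (Dmac2l), Atp5sl (Dmac2) and Cox4nb (Emc8, part of a membrane complex of the endoplasmic reticulum) are not held to be subunits of these complexes. Without these 3 and Cox7a2l, a factor of supercomplexes, the counts given below for CaCl2 against sham would be 23 lower and 1 higher of 79.

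One-colour Agilent arrays, 3 per group, measured RNA of the abdominal aorta in C57BL/6 uMT mice. uMT mice lack B cells, and every group carried this defect, so no comparison has a B cell-sufficient control. The sham group had saline placed around the aorta. The CaCl2 group had 0.5 M CaCl2 placed there, a model of abdominal aortic aneurysm, and the CaCl2+IgG group was treated likewise and was given polyclonal mouse IgG into the peritoneum. Tissue was taken 7 days after CaCl2. The labels do not state age, the dose of IgG or the day of the sham samples. They do not say whether each array holds 1 animal either, so a p-value measures the spread between arrays of a group and that spread may be technical.

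Complexes I and II pass electrons from NADH and succinate to ubiquinone, complex III passes them on to cytochrome c, and complex IV passes them to oxygen. Complexes I, III and IV pump protons as they do so, and complex V, the ATP synthase, uses the resulting gradient to make ATP. Most subunits are encoded in the nucleus and a smaller set in mitochondrial DNA. Several subunits of complex IV come in a widely expressed form and in a form found mainly in certain tissues such as heart, skeletal muscle, brown fat, lung or testis.

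A level below is the log2 of the processed signal minus the log2 of the array's 75th percentile, so that 0 is a signal at that percentile. Levels of different genes come from different probes and are not compared gene by gene. Depending on the array, 54.9% to 59.9% of the 55681 probes exceeded background clearly, and no spot was saturated. The first principal component of all genes held 69.2% of the variance and parted the sham arrays from the rest. CaCl2+IgG replicate 3 stood apart on the second component, at -74.1 against 0.58 to 15.8 for the other arrays. It correlated with its replicates at 0.957 and 0.961, against 0.979 to 0.990 for the other pairs within a group. The smooth muscle gene Acta2 lay between 8.19 and 10.03 on every array. The 75th percentile of the signal itself was 267 to 302 on the sham arrays, 381 to 496 on the CaCl2 arrays and 270 to 455 on the CaCl2+IgG arrays.

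The first comparison asked how the subunit genes of the CaCl2-treated aorta differed from sham. On the 75th percentile scale 24 of the 83 genes fell and 1 rose, while under scaling to the array median 0 fell and 1 rose. Of all genes tested, 36.7% passed the test in either direction and 19.2% passed it as lower. The lower members were 28.9% of the 83, against that 19.2%, and the 1 higher member was 1.2%, against 17.6% of all genes. These shares come from genes of unlike signal. On each array the members' median level lay 4.17 to 4.71 above that of all genes. Under scaling to the array median 6.51% of all genes passed as lower and 22.2% as higher, and with normexp background 20.5% of the members passed as lower, against 22.4% of all genes. The test was limma, in 1 fit of all arrays, with Benjamini-Hochberg adjustment over all genes tested and a threshold of 0.05. The differences were small: the members' median change was -0.28, which is -17.9%, and the median over all genes was -0.08. A change below -0.5 was seen in 17 members, one between -0.5 and -0.25 in 29, one between -0.25 and 0 in 28, and a positive one in 9. In 47 members all CaCl2 arrays lay below all sham arrays, as they did in 32% of all genes. Over the 83 genes the median deviation from the sham mean was -0.09, 0.12 and -0.02 on the sham arrays and -0.23, -0.34 and -0.30 on the CaCl2 arrays, so these medians did not overlap.

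**Figure D1:**
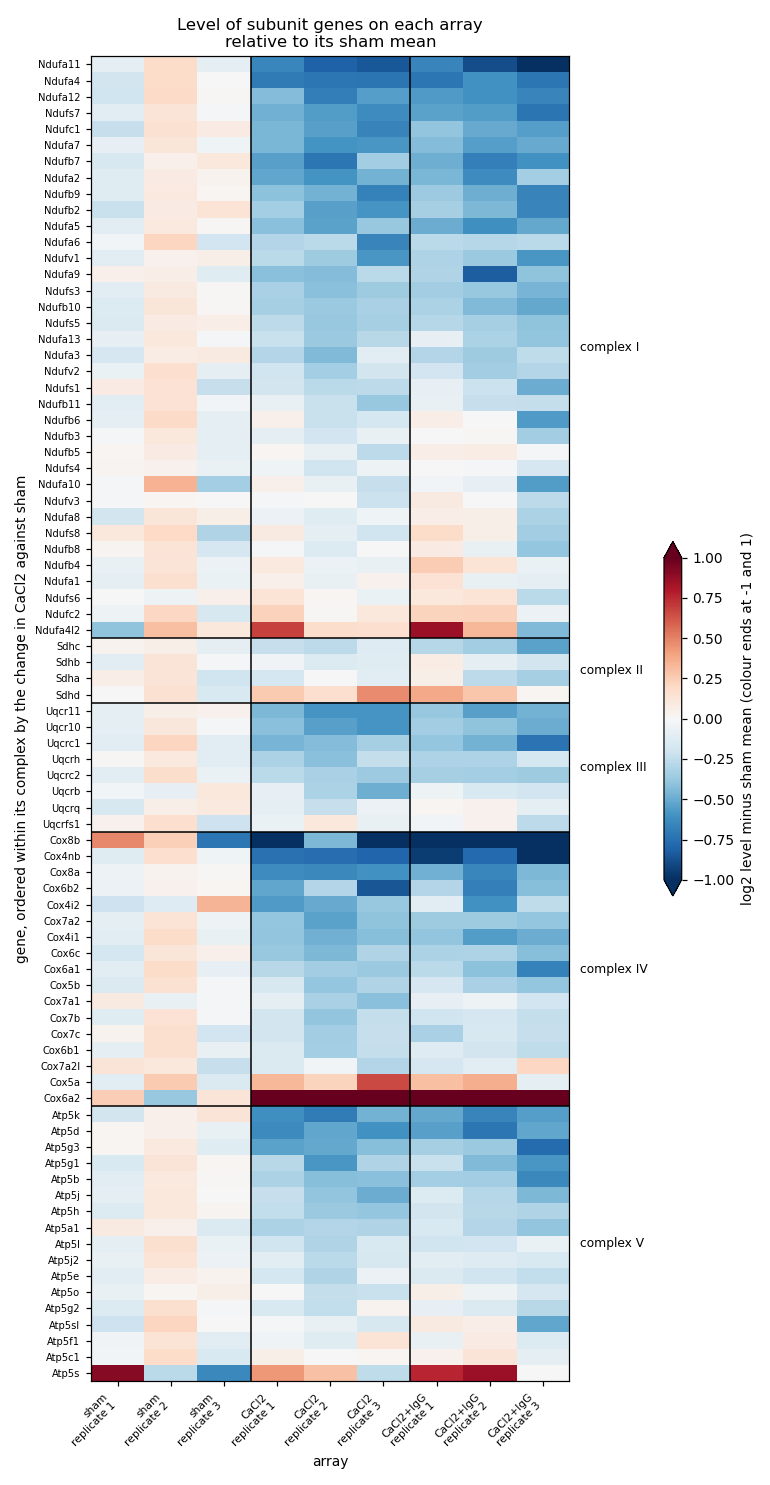
Level of subunit genes (rows, by complex) on each array (columns) relative to the mean of its sham arrays, in log2 units on the 75th percentile scale. Many rows are blue on all CaCl2 and CaCl2+IgG arrays, Cox6a2 is red on all of them, and under scaling to the array median the members' median in CaCl2 against sham was 0.19 in place of -0.28.

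The direction of the median change rested on the scale of the arrays, and the position relative to all genes on the background correction and the filter. With each array scaled to its median, the shift of the median gene went from -0.08 to 0.39 and that of the median member from -0.28 to 0.19, and 20 in place of 74 members had a negative change. Among the genes that passed, the share that was higher moved from 47.8% to 77.3%. The members' median lay 0.21 below that of all genes on both scales. These scales differ by a single factor per array, so the distance is the same on them by construction. The members' median lay 0.22 below that of all genes after quantile normalization and 0.08 below it after normexp background correction. With no filter on dim probes it lay 0.03 above the median of all genes, which was then -0.32. Quantile normalization, which forces the same distribution on every array, left 22 members lower and 1 higher. The lower ones were then 26.5% of the members, against 15.5% of all genes. Leaving out sham replicate 2 reduced the lower members from 24 to 11, and leaving out sham replicate 3 to 14. Without CaCl2 replicate 1 they numbered 15, and without CaCl2 replicate 3 also 15. In this order these were 13.3%, 16.9%, 18.1% and 18.1% of the members, against 12.4%, 10.8%, 11.6% and 11.6% of all genes. With the row number as a block the lower members numbered 13, which were 15.7% of the members, against 9.34% of all genes. This block ignored the slide, so it put sham replicate 3 together with the CaCl2 arrays. No row of a slide held both sham and CaCl2 arrays, so no value within a row could be had for this comparison, and sham replicate 3 was the single array on a second slide.

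**Figure D2:**
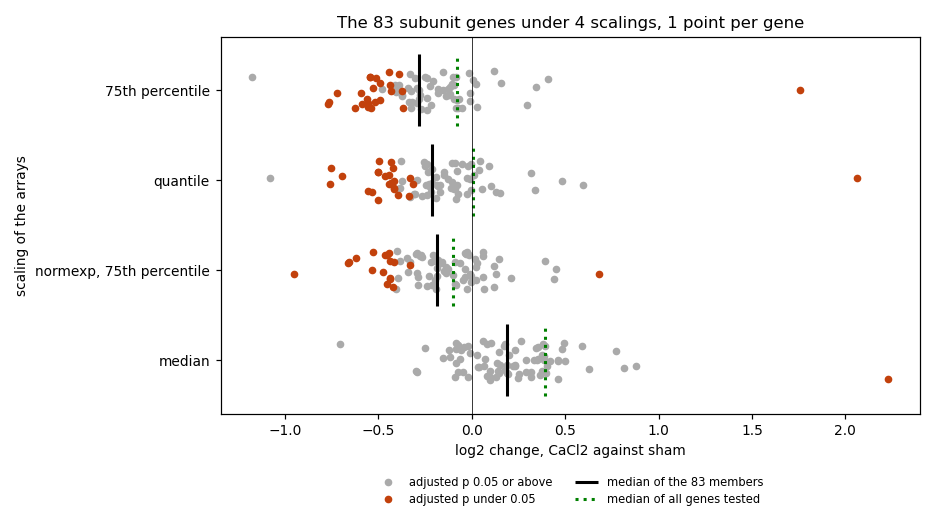
Log2 change in CaCl2 against sham of the 83 subunit genes (points) under 4 scalings of the arrays, with the median of the members (black) and of all genes tested (green). The members' median lies below that of all genes under each of the 4 scalings, at -0.28, -0.21, -0.19 and 0.19, and Cox6a2 passes the test under each of them.

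Markers of some cell types moved in CaCl2 against sham, where 17.6% of all genes rose and 19.2% fell. Of 13 measured smooth muscle markers 12 fell, with a median change of -1.96, and under scaling to the array median 12 still fell. Their summed signal, in units of the array's 75th percentile, was 3589 to 4116 in sham, 1125 to 1769 with CaCl2 and 1266 to 1600 with CaCl2+IgG. Of 16 macrophage markers 12 rose and 1, Itgam, fell, and their summed signal was 356 to 441 in sham, 655 to 741 with CaCl2 and 687 to 804 with CaCl2+IgG. Of 11 T and NK cell markers 8 rose and 1, Cd4, fell, with sums of 6.89 to 9.11, 11.9 to 23.9 and 12.6 to 15.6 in the same order, and Cd8a, Cd8b1, Klrb1c and Gzmb were well above background on no sham array. Of 9 neutrophil markers 4 rose, while the sum went from 216 to 280 in sham to 138 to 162 with CaCl2. It was 140 to 347 with CaCl2+IgG, and Mpo and Cxcr2 were well above background on no sham array. Markers well above background on no sham array passed the filter only through treated groups, so the filter itself favoured a rise in them. Of 10 white adipocyte markers 3 fell, with sums of 231 to 390, 84.2 to 202 and 63.5 to 142. Of 10 fibroblast markers 4 rose, with sums of 1137 to 1258, 1492 to 1710 and 1666 to 1909. Of 9 endothelial markers 2 rose and 2 fell, 22.2% each and close to the shares of all genes. Of 6 nerve and Schwann cell markers 4 rose, and of 5 adrenal and kidney markers 2 rose and 1 fell. Under scaling to the array median 13 macrophage and 10 T and NK cell markers rose and 1 white adipocyte marker fell. With normexp background 5 T and NK cell markers rose, with a median change of 0.54 in place of 2.25. Of the neutrophil markers 2 then rose, with a median of 0.17 in place of 1.65. With this correction 13 macrophage markers rose and 2 fell, and 4 white adipocyte markers fell. The part of these shifts in the results on the subunits was not tested. In bulk tissue, fewer cells of a type and less RNA per cell cannot be told apart.

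In complex I, the NADH dehydrogenase, 12 of 37 genes fell and 0 rose on the 75th percentile scale. Under scaling to the array median 0 fell. On the first scale those that fell were 32.4%, against 19.2% of all genes. The 7 core subunits, which carry the flavin, the iron-sulfur clusters and the ubiquinone site, had a median change of -0.24, and 2 of them fell. Ndufs7, which holds the last iron-sulfur cluster before ubiquinone, was at 5.42, 5.66 and 5.52 in sham and at 5.05, 4.98 and 4.90 with CaCl2. The groups did not overlap, and the change was -0.55 ± 0.12 (SE, n = 3 and 3; limma adjusted p = 0.0107). Ndufs3 fell by 0.37 ± 0.11 (limma adjusted p = 0.0358). Ndufv1, which binds NADH, missed the threshold narrowly, with a change of -0.40 ± 0.14 (limma adjusted p = 0.0504). Ndufs8 had a change of -0.07 with overlapping arrays.

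The 28 accessory subunits of complex I, which surround the core, had a median change of -0.29, and 9 fell. Ndufa11, a membrane subunit where the complex meets complex III, had the lowest change of complex I. It was at 3.73, 4.02 and 3.74 in sham, at 3.18, 3.02 and 2.98 with CaCl2 and at 3.17, 2.94 and 2.79 with CaCl2+IgG. Both treated groups lay wholly below sham, and in CaCl2 the change was -0.77 ± 0.15, which is -41.3% (limma adjusted p = 0.0058). Under scaling to the array median it was -0.30, with an adjusted p of 0.473 by limma. Ndufa12, Ndufc1, Ndufa7, Ndufb7, Ndufa2, Ndufb9, Ndufb2 and Ndufa5 fell by 0.44 to 0.56. Other accessory genes had changes near 0: Ndufa1 had one of 0.01, Ndufb4 of -0.01 and Ndufs6 of 0.03, each with overlapping arrays. Ndufc2 had the highest change of the accessory genes, 0.12 ± 0.15 (limma adjusted p = 0.56).

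Ndufa4, first assigned to complex I and now known as a subunit of complex IV, had the smallest p of the complex I names. It was at 4.23, 4.60 and 4.42 in sham, at 3.71, 3.69 and 3.68 with CaCl2 and at 3.69, 3.81 and 3.70 with CaCl2+IgG. The CaCl2 arrays lay close together and below every sham array, with a change of -0.72 ± 0.13 (limma adjusted p = 0.00416). Ndufa4l2, its relative known as a hypoxia-inducible gene, was at 1.94, 2.65 and 2.45 in sham and at 3.03, 2.52 and 2.52 with CaCl2. These arrays overlapped, and the change of 0.34 ± 0.34 did not pass (limma adjusted p = 0.449). The ratio of Ndufa4l2 to Ndufa4 within an array, which a single factor per array leaves unchanged, went from 0.00 ± 0.19 in sham to 1.07 ± 0.28 with CaCl2 (log2, SD, n = 3 each). The 3 CaCl2 arrays were all above the 3 sham arrays, and CaCl2+IgG, at 0.28 to 1.59, was above sham too.

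Complex II, the succinate dehydrogenase, is the one complex that also serves the citric acid cycle, and all its subunits are nuclear. None of its 4 genes passed the test in CaCl2 against sham, and their median change of -0.10 was close to the -0.08 of all genes. Sdha, the flavoprotein, had a change of -0.09 ± 0.15 and Sdhb, the iron-sulfur subunit, one of -0.10 ± 0.13, each with overlapping arrays. The membrane anchors lay on either side. Sdhc was at 3.47, 3.50 and 3.34 in sham, at 3.21, 3.17 and 3.31 with CaCl2 and at 3.15, 3.09 and 2.90 with CaCl2+IgG. Sdhd was at 3.85, 4.0 and 3.69 in sham, at 4.11, 4.01 and 4.32 with CaCl2 and at 4.23, 4.12 and 3.87 with CaCl2+IgG. CaCl2 and sham did not overlap for either gene, but the changes of -0.21 and 0.30 did not pass (limma adjusted p = 0.214 and 0.153). Their 95% intervals in that fit were -0.49 to 0.07 for Sdhc and -0.05 to 0.65 for Sdhd. Whether complex II differed from the other complexes was not tested.

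In complex III, the cytochrome c reductase, 2 of 8 genes fell and all 8 had a negative change on the 75th percentile scale. Under scaling to the array median 2 had a negative change and 0 fell. On the first scale those that fell were 25%, against 19.2% of all genes. Both genes that fell encode small subunits without redox centres. Uqcr11 was at 5.70, 5.85 and 5.84 in sham, at 5.35, 5.21 and 5.21 with CaCl2 and at 5.42, 5.26 and 5.32 with CaCl2+IgG. Sham lay above all treated arrays, and the change in CaCl2 was -0.54 ± 0.12 (limma adjusted p = 0.00886). Uqcr10 fell by 0.51 ± 0.12 (limma adjusted p = 0.0125). The core proteins Uqcrc1 and Uqcrc2 had changes of -0.41 and -0.32 without overlap and without passing (limma adjusted p = 0.0602 and 0.0654). Uqcrfs1, the Rieske iron-sulfur protein, had the highest change of the complex, -0.01 ± 0.15, with overlapping arrays.

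**Figure D3:**
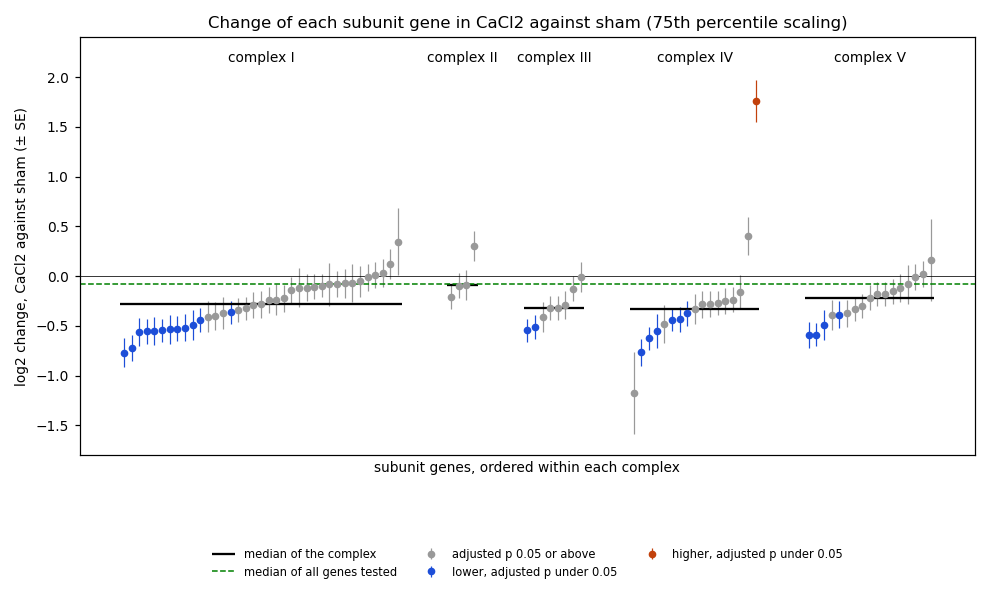
Log2 change in CaCl2 against sham of each subunit gene with its SE from limma, by complex, on the 75th percentile scale. Lines mark the median of each complex, -0.28, -0.10, -0.32, -0.33 and -0.22 for complexes I to V, which under scaling to the array median were 0.19, 0.38, 0.15, 0.14 and 0.25. Cox6a2 stands alone at 1.76.

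Complex IV, cytochrome c oxidase, held the extremes of the set. Of its 17 genes 6 fell and 1 rose on the 75th percentile scale, and under scaling to the array median 0 fell and 1 rose. On the first scale those that fell were 35.3%, against 19.2% of all genes. Cox4nb, which is no subunit, is among the 6, with a change of -0.77 ± 0.14 (limma adjusted p = 0.00439). Of the 6 widely expressed isoforms 3 fell, and their median change was -0.38. Cox8a was at 7.24, 7.32 and 7.30 in sham, at 6.66, 6.64 and 6.68 with CaCl2 and at 6.81, 6.63 and 6.84 with CaCl2+IgG. All treated arrays lay below all sham arrays. The change in CaCl2 was -0.63 ± 0.11, which is -35.3% (limma adjusted p = 0.00432). Cox4i1, the main form of subunit 4, fell by 0.43 ± 0.13 (limma adjusted p = 0.0287) and Cox7a2 by 0.44 ± 0.12 (limma adjusted p = 0.021), while under scaling to the array median they were at 0.04 and 0.03. The call of Cox4i1 was kept in 9 of 20 alternatives and that of Cox7a2 in 15. Cox6a1, Cox6b1 and Cox7b had changes of -0.33, -0.24 and -0.27, with the CaCl2 arrays below sham but adjusted p values of 0.108, 0.159 and 0.116 by limma. Of the 4 subunits without a second isoform gene, Cox6c fell by 0.38 ± 0.13 (limma adjusted p = 0.0455). Cox5a was at 4.69, 5.07 and 4.66 in sham and at 5.14, 5.03 and 5.47 with CaCl2, and its change of 0.41 ± 0.19 did not pass, with overlapping arrays (limma adjusted p = 0.124). Cox7a2l, which takes part in supercomplexes of complexes III and IV, had a change of -0.16 with overlapping arrays.

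Cox6a2, the form of subunit 6a found in heart and skeletal muscle, was the 1 gene of the name rule that rose. It was at -2.74, -3.37 and -2.86 in sham, at -1.48, -1.31 and -0.90 with CaCl2 and at -1.07, -0.82 and -0.97 with CaCl2+IgG, well above background on every array. All treated arrays lay above all sham arrays. The change in CaCl2 was 1.76 ± 0.21, a level 3.38-fold higher (limma adjusted p = 0.000918), and it passed under all 20 alternative settings tried. Its size depended on the background correction: with normexp and an offset of 50 it was 0.68. Within an array, the ratio of Cox6a2 to Cox6a1 went from 0.00 ± 0.49 in sham to 2.09 ± 0.35 with CaCl2 and 2.49 ± 0.26 with CaCl2+IgG (log2, SD, n = 3 each), again without overlap with sham.

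The other 4 restricted isoforms had negative changes on the 75th percentile scale, and under scaling to the array median Cox7a1 turned to 0.19. Cox8b, the form of subunit 8 found in heart, skeletal muscle and brown fat, was at 0.55, 0.31 and -0.65 in sham, at -1.68, -0.38 and -1.26 with CaCl2 and at -1.68, -1.35 and -2.12 with CaCl2+IgG. Sham replicate 3 and CaCl2 replicate 2 made these groups overlap. The change in CaCl2 was -1.17 ± 0.41 (limma adjusted p = 0.0528), with an interval of -2.11 to -0.24. It passed under 7 of the 20 alternatives, among them without sham replicate 3 (adjusted p = 0.029 by limma) and without CaCl2 replicate 2 (adjusted p = 0.0242 by limma). In CaCl2+IgG against the same sham arrays it fell by 1.78 ± 0.41 (limma adjusted p = 0.0137). Cox6b2, known from testis, was at 0.52, 0.63 and 0.60 in sham and at 0.07, 0.29 and -0.27 with CaCl2, and fell by 0.56 ± 0.17 (limma adjusted p = 0.0367), a call lost in 8 of 20 alternatives. Cox4i2, known from lung and as a hypoxia-responsive gene, had a change of -0.48 ± 0.19 (limma adjusted p = 0.078), and Cox7a1, the heart and skeletal muscle form of subunit 7a, one of -0.28 ± 0.13 (limma adjusted p = 0.12), both with CaCl2 below sham on all arrays. The ratio of Cox8b to Cox8a lay at -0.55 ± 0.67 with CaCl2 and that of Cox7a1 to Cox7a2 at 0.16 ± 0.16, each overlapping sham (log2, SD, n = 3). The ratio of Cox4i2 to Cox4i1 was -0.05 ± 0.11 with CaCl2, also within the sham range, and that of Cox6b2 to Cox6b1, at -0.32 ± 0.34, overlapped sham as well. With CaCl2+IgG the ratios of Cox8b to Cox8a, at -1.25 ± 0.49, and of Cox6b2 to Cox6b1, at -0.28 ± 0.19, lay wholly below sham, and that of Cox7a1 to Cox7a2, at 0.26 ± 0.06, lay wholly above it.

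**Figure D4:**
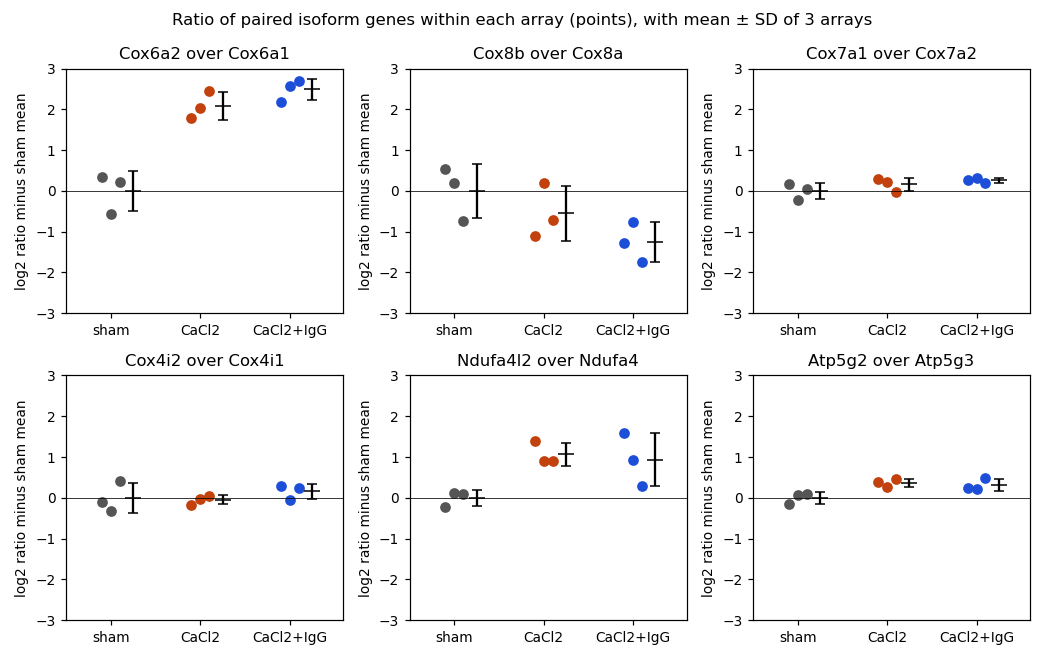
Log2 ratio of 6 pairs of isoform genes within each array, minus the mean of the sham arrays, with points for arrays and bars for the mean ± SD of 3 arrays. The ratio of Cox6a2 to Cox6a1 lies between 1.78 and 2.46 with CaCl2 and between 2.19 and 2.70 with CaCl2+IgG, above all sham arrays, while Cox7a1 over Cox7a2 and Cox4i2 over Cox4i1 stay within 0.41 of the sham mean.

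Markers of the tissues these isoforms are known from were measured beside them. Of 14 skeletal muscle markers 8 were measured, and Myh1, Myh2, Myh4, Ckm, Mylpf and Mb were not well above background throughout any group. Of the 8, 3 fell (Acta1, Tnnc2 and Myoz1) and Tnni2 rose, and their summed signal was 43.1 to 55.1 in sham, 7.69 to 16.4 with CaCl2 and 9.71 to 10.5 with CaCl2+IgG. Of 11 brown fat markers 9 were measured, without Ucp1 and Elovl3. Ppargc1a, described below, is in this list too. Of the 9, 3 fell (Cidea, Otop1 and Prdm16) and 2 rose (Dio2 and Lhx8), and their summed signal was 8.02 to 8.99 in sham and 5.05 to 5.63 with CaCl2, and 4.96 to 5.78 with CaCl2+IgG. Their part in the levels of Cox6a2 and Cox8b was not tested.

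The promoters of 4 of these genes are given to set a restricted form, Cox8b, beside its widely expressed partner Cox8a, with Cox6a1 and Ndufa11 as genes holding NRF1 motif matches. These 4 were picked after their values were seen. Each is the stretch of 250 bases before the start of the gene in RefSeq (GRCm38.p6), written 5′ to 3′ along the gene, with matches to the NRF1 motif in capitals. Ndufa11 lies at chr17:56717512-56717761 on the plus strand, Cox6a1 at chr5:115348959-115349208 on the minus strand, Cox8a at chr19:7217617-7217866 on the minus strand and Cox8b at chr7:140900447-140900696 on the minus strand.
Ndufa11: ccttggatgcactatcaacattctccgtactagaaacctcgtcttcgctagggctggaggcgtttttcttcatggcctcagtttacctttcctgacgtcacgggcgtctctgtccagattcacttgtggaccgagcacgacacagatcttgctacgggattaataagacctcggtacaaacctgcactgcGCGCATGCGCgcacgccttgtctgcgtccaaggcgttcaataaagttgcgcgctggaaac
Cox6a1: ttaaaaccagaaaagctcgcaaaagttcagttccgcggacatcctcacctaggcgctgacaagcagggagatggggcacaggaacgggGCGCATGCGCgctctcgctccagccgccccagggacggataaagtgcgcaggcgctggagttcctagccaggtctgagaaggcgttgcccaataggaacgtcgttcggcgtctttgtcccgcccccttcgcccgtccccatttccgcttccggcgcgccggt
Cox8a: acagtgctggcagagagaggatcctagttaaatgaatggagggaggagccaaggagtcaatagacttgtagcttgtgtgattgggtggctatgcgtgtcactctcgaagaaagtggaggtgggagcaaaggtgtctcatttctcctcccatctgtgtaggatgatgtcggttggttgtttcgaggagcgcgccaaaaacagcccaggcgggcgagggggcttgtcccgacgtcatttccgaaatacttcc
Cox8b: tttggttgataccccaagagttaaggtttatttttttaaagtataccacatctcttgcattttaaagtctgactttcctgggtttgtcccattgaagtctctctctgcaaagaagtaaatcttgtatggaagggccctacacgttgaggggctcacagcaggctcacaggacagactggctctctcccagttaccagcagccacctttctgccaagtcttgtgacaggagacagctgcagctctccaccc
The stretch of Cox8b, the restricted form, held 1 CG dinucleotide and 47.2% G and C. Those of Cox8a, Cox6a1 and Ndufa11 held 11, 26 and 20 CG dinucleotides.

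RefSeq windows of 250 bases before to 50 after the start were found for 69 of the 85 genes. They held a median of 19 CG dinucleotides, against 7 over 27025 genes, and 57.3% against 52.7% G and C. Motifs of 4 factors known to act on nuclear genes of mitochondria were searched on both strands, with exact letters, and their matches may overlap. GCATGCGC, a core of the binding motif of NRF1, was in the windows of 10 of 69 genes (14.5%) and of 3.05% of all genes. AAGATGGCG, the motif of YY1, was in 8 (11.6%, against 1.64%), CCGGAAGT, the motif of GABPA, in 5 (7.25%, against 4.31%), and TCAAGGTCA, the motif of ERR, in 2 (2.9%, against 0.466%). At least 1 of them was in 24 of the 69 genes, 34.8%, against 8.925% of all genes. Of the 19 genes with a window that fell in CaCl2, 8 held at least 1. In Cox6a1 and Ndufa11 an NRF1 match and its reverse overlap in a run of 10 bases. Matches are letters in a window and do not show binding.

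In complex V, the ATP synthase, 4 of 17 genes fell on the 75th percentile scale and 0 under scaling to the array median. On the first scale those that fell were 23.5%, close to the 19.2% of all genes. The catalytic F1 part holds Atp5a1, Atp5b, Atp5c1, Atp5d and Atp5e, and 2 of these 5 fell. Atp5d, the delta subunit of the central stalk, was at 4.47, 4.50 and 4.37 in sham, at 3.81, 3.92 and 3.84 with CaCl2 and at 3.90, 3.73 and 3.93 with CaCl2+IgG. Its treated arrays lay together below sham, and the change was -0.59 ± 0.12, which is -33.5% (limma adjusted p = 0.00638). Atp5b, the catalytic beta subunit, fell by 0.39 ± 0.13 (limma adjusted p = 0.049). Atp5c1, the gamma subunit that turns inside the head, had a change of 0.02 ± 0.13, with overlapping arrays, on its brightest probe. A dimmer probe of this gene had a change of -0.31.

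Of the 3 small membrane subunits, Atp5k fell by 0.60 ± 0.13 (limma adjusted p = 0.0106), the lowest change of complex V. It was at 5.46, 5.70 and 5.77 in sham and at 5.03, 4.94 and 5.17 with CaCl2, without overlap. The 4 genes of the peripheral stalk, Atp5f1, Atp5h, Atp5j and Atp5o, had a median change of -0.24 and none passed. The c ring, through which protons pass, is encoded by 3 genes for the same mature protein. Atp5g3 was at 5.86, 5.93 and 5.71 in sham and at 5.30, 5.32 and 5.41 with CaCl2, and fell by 0.49 ± 0.15 (limma adjusted p = 0.0334), a call lost in 11 of 20 alternatives. Atp5g1 had a change of -0.39 ± 0.15 (limma adjusted p = 0.0761) and Atp5g2 one of -0.12 ± 0.14 (limma adjusted p = 0.51). The ratio of Atp5g2 to Atp5g3 within an array was 0.37 ± 0.10 above its sham mean with CaCl2 and 0.32 ± 0.15 with CaCl2+IgG, both without overlap with sham, and that of Atp5g1 to Atp5g3 was 0.10 ± 0.16, with overlap. Atp5s, which is no subunit, had the highest change of the complex, 0.16 ± 0.41, and scattered from -3.77 to -2.21 over the sham arrays.

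For 28 members more than 1 probe was kept, and in 5 of these the probes differed in sign in CaCl2 against sham. Ndufb5, Cox7c and Atp5c1 were among these. The median spread between probes of 1 gene was 0.08. Of the genes that fell, Cox8a had a second probe at -0.59 beside -0.63, Uqcr11 one at -0.58 beside -0.54 and Atp5k others at -0.61 and -0.57 beside -0.60. Cox6a2 had a single probe kept.

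The second comparison asked what IgG added to CaCl2. None of the 83 subunit genes and none of the 16375 genes passed the test (0% by limma), and at an unadjusted p under 0.05 there were 0 members and 242 genes. The members' median change was 0.01 against -0.02 for all genes, with 39 negative and 44 positive. For 75 of the 83 genes the 95% interval of the change lay within -0.5 to 0.5, and its median width was 0.61, so differences inside those intervals were not detectable with 3 arrays a group. The 8 genes with wider or shifted intervals were Ndufa10, Ndufa4l2, Cox4i2, Cox4nb, Cox5a, Cox6a2, Cox8b and Atp5s. The changes ran from -0.61 for Cox8b, with an interval of -1.54 to 0.33, to 0.39 for Atp5s, with one of -0.56 to 1.33. For Cox6a2 the change was 0.28, with an interval of -0.21 to 0.76. In 1 member, Sdhc, all CaCl2+IgG arrays lay below all CaCl2 arrays, as in 2.42% of all genes, and in 0 members they lay above, as in 2.62%. No member passed under any of the 20 alternatives. All 10 white adipocyte markers had a negative change, with a median of -0.70, and none passed. The 9 brown fat markers had a median change of -0.005, with 5 negative and 4 positive. That of the 8 skeletal muscle markers was 0.02, with 3 negative and 5 positive, and none of either list passed. The part of these 3 tissues in the value of Cox8b was not tested.

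The third comparison set CaCl2+IgG against the same sham arrays, so it is not independent of the first. On the 75th percentile scale 28 members fell and 1, Cox6a2, rose, where 29.2% of all genes passed in either direction and 14.4% passed as lower, while under scaling to the array median 1 member fell and 1 rose. The members that fell on the 75th percentile scale were 33.7% of those tested. Under scaling to the array median 5.13% of all genes fell and 13.1% rose. The share of higher genes among all that passed was 50.9%, and 71.8% under scaling to the array median. The members' median change was -0.27, against -0.09 for all genes. By complex, 14 of 37 genes fell in complex I, 1 of 4 in complex II, 3 of 8 in complex III, 6 of 17 in complex IV and 4 of 17 in complex V. Cox6a2 rose by 2.03 ± 0.21 (limma adjusted p = 0.000675). Ndufa11 fell by 0.86 ± 0.15 (limma adjusted p = 0.00399), and Sdhc, which had not passed in CaCl2 alone, fell by 0.39 ± 0.12 (limma adjusted p = 0.0441), a call kept in 5 of 20 alternatives. Cox6a1 fell by 0.45 ± 0.15 (limma adjusted p = 0.0493), a call kept in 4 of 20. The count of members that fell was 9 without sham replicate 2, 11 without sham replicate 3, 9 without CaCl2+IgG replicate 2, 18 without CaCl2+IgG replicate 3 and 18 without CaCl2 replicate 1. Of the 10 white adipocyte markers 8 fell in this comparison, with a median of -2.26 on the 75th percentile scale. Under scaling to the array median 6 of them fell. On the first scale 3 of 9 brown fat markers fell and 2 rose, with a median of -0.18. Of 8 skeletal muscle markers 3 fell and 1 rose, with a median of -0.45. The part of these tissues in the fall of Cox8b was not tested. Row 2 of the first slide held sham replicates 1 and 2 and CaCl2+IgG replicates 2 and 3. Within these 4 arrays 1 member fell and 1 rose, with a median change of -0.34. The member that fell was 1.2% of the members, where 2.58% of all genes fell and 5.34% rose.

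Genes of the same pathway outside the name rule were described from lists chosen by function. The 13 subunits encoded in mitochondrial DNA belong to complexes I, III, IV and V. In CaCl2 against sham 11 of them fell, with a median change of -0.65 on the 75th percentile scale. These were 84.6%, against 19.2% of all genes. Under scaling to the array median the median was -0.18, ND4L fell and ND6 rose. ND2, a proton-pumping subunit of complex I, was at 8.01, 7.93 and 8.20 in sham, at 7.00, 6.86 and 7.14 with CaCl2 and at 7.15, 6.83 and 7.44 with CaCl2+IgG. It fell by 1.05 ± 0.18 without overlap (limma adjusted p = 0.00333), and ATP6 of complex V fell by 0.74 ± 0.14 (limma adjusted p = 0.00568). ND4L fell by 1.21 ± 0.23 (limma adjusted p = 0.00576). COX3 had a change of -0.43 (limma adjusted p = 0.0517), and ND6, the 1 subunit encoded on the opposite strand of mitochondrial DNA, one of 0.31 ± 0.28 with overlapping arrays. Whether the mitochondrial and nuclear sets differed was not tested.

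Of 3 subunits that the name rule misses, Ndufab1, the acyl carrier protein of complex I, rose by 0.97 ± 0.22 (limma adjusted p = 0.0105). It was at -1.81, -1.50 and -2.08 in sham, at -0.81, -1.10 and -0.56 with CaCl2 and at -1.05, -0.62 and -1.09 with CaCl2+IgG, with all treated arrays above sham. Cyc1, the cytochrome c1 of complex III, had a change of -0.22, and Atpif1, the inhibitor of the ATP synthase, one of -0.18, and neither passed.

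Of 45 assembly factors, which build the complexes, Cox14 and Uqcc3 rose and Timmdc1 fell, with a list median of 0.01, and under scaling to the array median 2 rose and 0 fell. Of 19 electron and ATP carriers Coq7, Etfb and Coq4 fell, with a median of -0.18. Of 20 genes of the citric acid cycle and pyruvate dehydrogenase 7 fell and 0 rose, with a median of -0.28. Ogdh fell by 0.73 ± 0.14 (limma adjusted p = 0.00609) and Idh3g by 0.59 ± 0.12 (limma adjusted p = 0.00771). Under scaling to the array median none of the genes of these last 2 lists fell. Of 78 mitochondrial ribosomal proteins 8 fell, Mrpl1 with the smallest p among them, and Mrps33 rose, with a median of -0.09. Under scaling to the array median 0 fell and 1 rose. On the 75th percentile scale lower genes were 2.2% of the assembly factors, 15.8% of the carriers and 10.3% of the ribosomal proteins. Among the citric acid cycle genes they were 35%, and among all genes 19.2%. Higher genes were 4.4% of the assembly factors and 17.6% of all genes.

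Of 17 measured regulators of mitochondrial biogenesis, Ppara and Pprc1 fell and none rose, and under scaling to the array median none passed. Those that fell were 11.8%, against 19.2% of all genes. Ppargc1a, the coactivator PGC-1alpha, was at -0.79, -1.25 and -0.92 in sham and at -2.48, -1.28 and -2.77 with CaCl2, lower on every CaCl2 array, with a change of -1.19 ± 0.43 that did not pass (limma adjusted p = 0.0598). The regulators Esrra, Nrf1, Gabpa and Tfam had changes of 0.18, 0.03, 0.00 and 0.10, and none passed. In glycolysis, the pathway that makes ATP outside mitochondria, 5 of 22 genes rose and 3 fell. These were 22.7% and 13.6%, against 17.6% and 19.2% of all genes. Under scaling to the array median 6 rose and 1 fell. Hk3, Aldoc and Ldha rose, by 2.61, 1.51 and 0.68, and Ldhb, Pfkm and Gapdh fell, by 1.31, 1.15 and 0.46. The rises of Hk3, Aldoc and Ldha stood beside those of the macrophage markers given above, whose part in them was not tested.

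**Figure D5:**
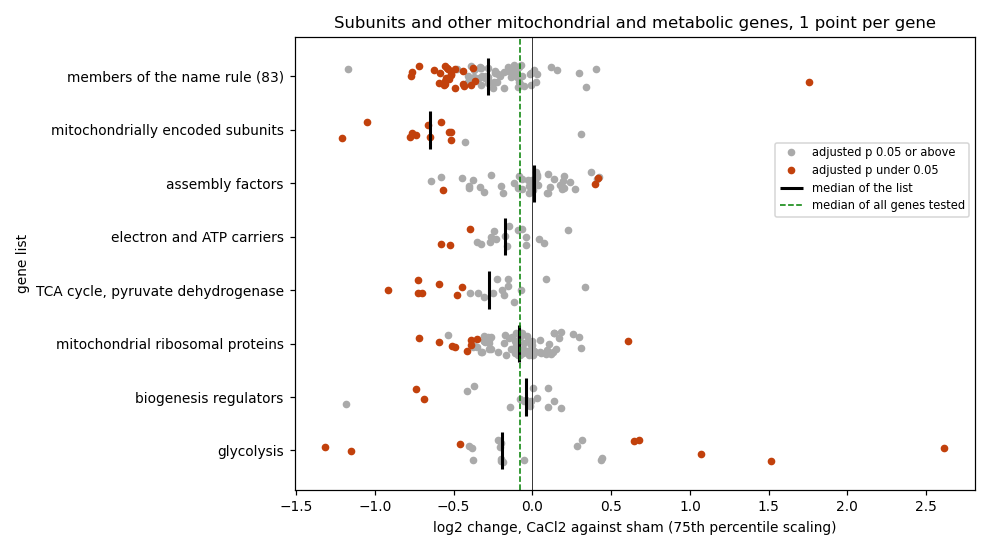
Log2 change in CaCl2 against sham of genes of 8 lists (1 point per gene) on the 75th percentile scale, with the median of each list and of all genes tested. The median is -0.28 for the members of the name rule and -0.65 for the 13 mitochondrially encoded subunits, against 0.01 for the assembly factors and -0.08 for all genes, and under scaling to the array median these 4 values were 0.19, -0.18, 0.48 and 0.39.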

How the data were processed

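Deposited scanner files of the 9 arrays hold intensity values, background-subtracted and detrended within each array, made with Agilent Feature Extraction 10.7.1.1 per the file headers (9.5.1.1 per the submitters' processing notes). Intensity values of the authors' deposited series table, made by steps that no source here gives, were an alternative. In CaCl2 against sham they left 22 members lower and 1 higher, as quantile normalization did. The members' medians were -0.210 and -0.214 in this order, so these 2 alternatives nearly repeat each other. Signals were put on the log2 scale, minus each array's 75th percentile. Control and outlier spots were left out and spots of 1 probe averaged. Probes kept (32166 of 55681) had the well-above-background mark throughout 1 group or more. Each gene took its brightest kept probe. Names came from RefSeq (GRCm38.p6) by accession or symbol, otherwise from the files. Groups came from sample titles. The test was limma (version 3.58.1, R version 4.3.3), in 1 fit with 6 residual degrees of freedom. The fit was tested on simulated data. The 3 arrays per group limit the precision. Columns not mapped to a sample numbered 0. Members described in full were, per complex, the largest increase, the largest decrease and the smallest p in CaCl2 against sham, the isoform pairs, complex II and any member that passed in CaCl2+IgG against CaCl2. Of the other lists, up to 3 genes per direction with the smallest p were named, and 5 regulators always. Some genes that this rule or the lists hold are counted but not reported here by name. The other genes named, and the groups by role within a complex, were chosen after their values were seen. The members and lists were chosen with earlier results of these data known. The alternatives were other scalings, background correction, filters, probe choice, blocks, array weights and leaving out each array.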

Additional observations from a re-analysis of the deposited data

How the results depend on the processing

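In CaCl2 against sham the median of the members stayed negative under each alternative except median scaling (0.187), and was -0.186 with normexp background. Relative to all genes it was -0.085 with normexp and, with no filter on dim probes, 0.0261, where 7254 more genes, dim ones, put the median of all genes at -0.317. Members that passed numbered 1 (0 lower) with median scaling and 14 (13 lower) with the row number, whatever the slide, as a block. They numbered 12 to 30 (11 to 29 lower) when leaving out 1 array. Of all genes 28.7%, 20.8% and 24% to 45.1% passed in these settings. Cox4i1 and Cox7a2 turned to 0.0379 and 0.0325 with median scaling, with adjusted p of 0.925 and 0.935 by limma. In CaCl2+IgG against CaCl2 the median was -0.227 with median scaling, where that of all genes was -0.25. In CaCl2+IgG against sham, 2 passed (1 lower) with median scaling, which put the median at -0.034, 17 (16 lower) with normexp, 15 (14 lower) with no filter, 14 (13 lower) with only the groups compared, 2 (1 lower) in row 2 of slide 1 alone, chosen after seeing the data, and 10 to 24 (9 to 23 lower) when leaving out 1 array. Of all genes 18.2%, 25.4%, 16.6%, 23.9%, 7.92% and 18.5% to 40.6% passed in these settings, in the same order. Relative to all genes the median was -0.084 with normexp and -0.0348 with no filter. Replicate numbers were not taken as pairs, since deviations of same-numbered arrays correlated at -0.196 to 0.219. With a replicate block 20 members passed in CaCl2 against sham (19 lower) and 18 in CaCl2+IgG against sham (17 lower). Of all genes 35.2% and 28.5% passed with this block. The cause was not tested, beyond the fewer arrays or other genes that some alternatives use. For single named members, 491 of 540 values in CaCl2 against sham kept their call, or stayed without a call whatever their sign. A call was lost in 39 and gained in 8, and 2 values of called genes turned in sign. In CaCl2+IgG against sham 458 values stayed as they were in this sense, 80 lost a call and 2 gained a call. Signal over background limits dim probes: Cox6a2 changed by 0.68 with normexp and by 2.23 with median scaling.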
